A study of Pyrus hybrid rootstock with 24 samples.

Results

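The step from callus formation to cambium differentiation in pear homografts was examined by comparing RNA-seq libraries of graft unions at 9 days after grafting (DAG), named SCD, with libraries at 5 DAG, named SCF. Homografts were plantlets of “Qingzhen D1” (Pyrus communis × Pyrus bretschneideri) grafted onto the same cultivar, so scion and rootstock had 1 genotype. The plantlets were joined in silicon tubing and grown in tissue culture on a medium that already held a cytokinin (6-BA), an auxin (IBA) and sucrose, which all groups shared. Each stage had 3 libraries, which the study describes as biological replicates, and 6 of the 24 libraries of the series entered the comparison. Genes were included when the FPKM (fragments scaled to gene length and sequencing depth) was at least 1 in at least 3 of these 6 libraries, which held for 24571 of 42812 genes. The 1 DAG (SSS) and 30 DAG (SVC) homografts, and heterografts of QAUP-1 (Pyrus ussuriensis) on “Qingzhen D1” at 1, 5, 9, and 30 DAG (DSS, DCF, DCD, and DVC), are used beside it. The samples are labelled as stem, and each is a whole graft union in which RNA of scion and rootstock was not separated. The label was not checked against tissue markers, because the files do not pair gene identifiers with names. In whole unions, a lower share of cells of 1 type and less RNA per cell cannot be told apart.

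After grafting, cells near the cut divide and form callus, which bridges scion and rootstock. Cells in the callus then take on the identity of cambium, the dividing layer that gives rise to xylem and phloem, and vascular strands join across the union. Auxin, carried down the stem, and cytokinin are the hormones best known for driving cell division and vascular differentiation in this process.

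The SCF libraries held 11002192 to 12256464 gene reads each (median 11443713) and the SCD libraries 11958383 to 13629999 (median 13261147), so SCD was sequenced somewhat deeper. An FPKM of 1 or more was reached by 24207 to 24334 genes per SCF library and by 24104 to 24612 per SCD library. The heterograft library DCD replicate 1 stood apart from its group. Its root mean square (RMS) difference in log2(FPKM + 1) was 0.391 from DCF replicate 2, against 0.467 and 0.485 from the other DCD libraries. The main heterograft values are therefore also given without it. Leaving out a DCD library because it lies near DCF tends to widen the heterograft step and its difference from the homograft step. Values without it are therefore not separate support for either. No homograft library was set aside on this ground, although only 2 of the 6 SCF and SCD libraries were nearest to their own stage.

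Whole transcriptomes at 5 and 9 DAG differed by little more than replicates of the same stage. The RMS difference between pairs of libraries, over the 24571 genes, ranged from 0.342 to 0.414 within SCF and from 0.366 to 0.398 within SCD. Between an SCF and an SCD library it ranged from 0.336 to 0.468, with a median of 0.385. The mean difference was 0.394 between the stages and 0.381 within them (exact permutation test over the 6 libraries, one-sided, p = 0.2; 10 splits are possible and the smallest p is 0.1). Only 2 of the 6 libraries, SCF replicate 1 and SCD replicate 2, were nearest to a library of their own stage, and SCF replicate 3 and SCD replicate 1 were each other's nearest. The homograft steps on either side were wider, with a median RMS difference of 0.636 between SSS and SCF and of 0.611 between SCD and SVC. These 2 steps share the SCF or the SCD libraries with the comparison. Between DCF and DCD the median was 0.514 (0.391 to 0.589).

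**Figure D1:**
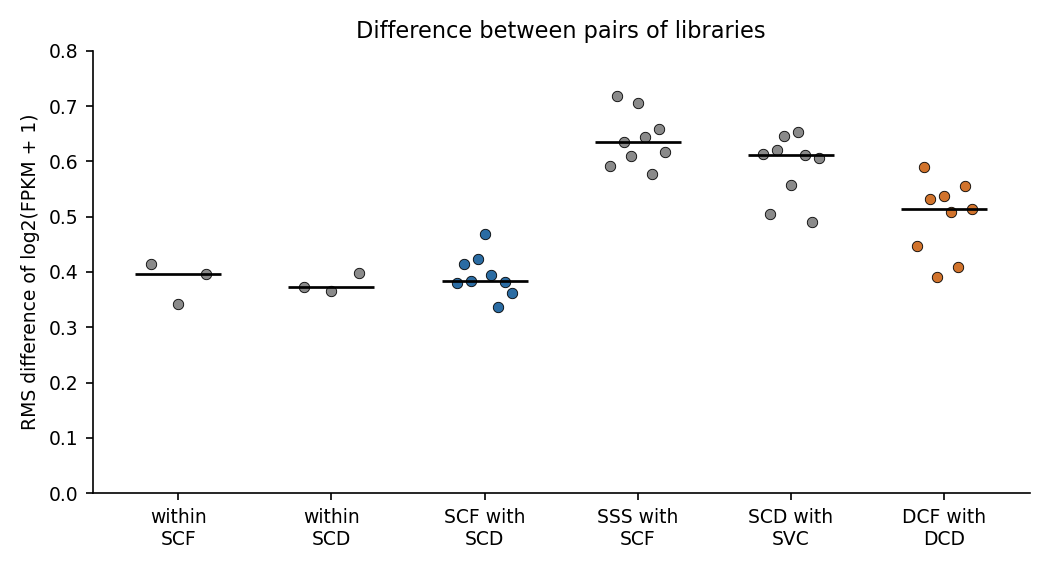
Difference between pairs of libraries. Each point is the root mean square difference in log2(FPKM + 1) between 1 pair of libraries over 24571 genes, and black lines are medians. The 9 pairs of SCF with SCD (blue, 0.336 to 0.468) overlap the range of pairs within a stage, and the medians of the pairs of SSS with SCF and SCD with SVC are above 0.6.

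Gene by gene, the step was small. The median absolute log2 fold change of SCD vs. SCF was 0.11, below the median standard error of 0.16. DEGs were called in limma with the study's cut-offs, a log2 fold change beyond 1 in size together with p below 0.05, on log2(FPKM + 1), a scale that understates the change of weakly expressed genes. A total of 146 genes were called (0.594% of the genes tested), with 88 up-regulated (0.358%) and 58 down-regulated (0.236%). None (0%) had a Benjamini-Hochberg adjusted p below 0.05, and the smallest adjusted p was 0.167. Without adjustment 1277 genes had p below 0.05 (5.20%), close to the 5% that the threshold alone admits, and limma-voom on recovered reads gave 1302 such genes and also 0 after adjustment. The 3 libraries of SCD lay wholly above or below the 3 of SCF for 2788 genes (11.3%; above for 6.20%, below for 5.15%), and those of DCD above or below DCF for 22.9%. Full separation of 3 from 3 libraries has p = 0.1 in an exact two-sided permutation test, the smallest possible. Interchangeable stages would thus give a share of about 0.1, close to that of the homograft step. The calls are therefore candidates at an unadjusted threshold.

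Other steps were fitted in the same model over the same genes. In homografts, SCF vs. SSS gave 1754 called genes (7.14%), 6867 genes passing the adjusted threshold (27.9%). SVC vs. SCD gave 1314 called genes (5.35%) and 6318 passing (25.7%). In heterografts, the step over the same days, DCD vs. DCF, gave 635 called genes (2.58%), 401 up-regulated (1.63%) and 234 down-regulated (0.952%), with 745 genes passing the adjusted threshold (3.03%). Without DCD replicate 1 the heterograft step gave 1145 called genes (4.66%), of which 854 were up-regulated (3.48%) and 291 down-regulated (1.18%), and 2520 genes passed the adjusted threshold.

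**Figure D2:**
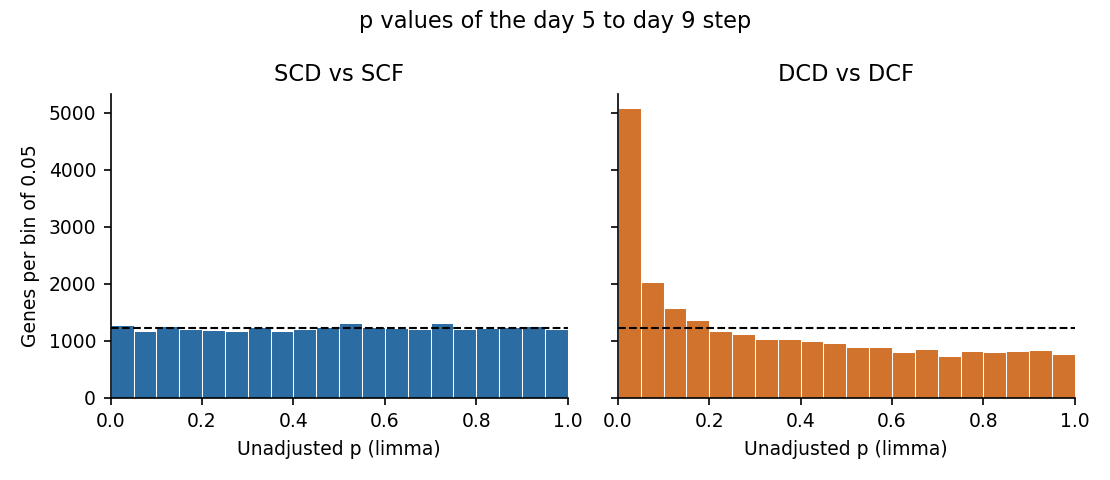
Unadjusted p values of the step from 5 to 9 DAG in homografts (left) and heterografts (right). Bars count genes in bins of 0.05 over 24571 genes, and the dashed line is the count per bin if p values were spread evenly. The homograft bars lie near the line, with 1277 genes in the lowest bin against 5084 (20.7%) in heterografts.

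The called genes were mostly weakly expressed and short. Of the genes with a mean FPKM below 5 over the 6 libraries, 1.29% were called, against 0.589% from 5 to 20, 0.0819% from 20 to 100, and 0.0564% at 100 or above. The median FPKM was 4.15 for the up-regulated and 3.62 for the down-regulated genes, against 12.6 for all genes tested. Their median coding lengths were 549 and 436 bases, against 1128. The up-regulated genes held a median of 192 reads over the 6 libraries together and the down-regulated genes 100. The 3 libraries of each stage did not overlap for 73 of the 88 up-regulated and 46 of the 58 down-regulated genes, but a gene had to differ between the stages to be called.

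Many of the calls were not kept when a single library was left out. In 6 further fits, each leaving out 1 of the 6 libraries, 40 of the 146 genes were called every time, 24 of them up-regulated and 16 down-regulated. Such a loss can also come from the lower replicate number or from a value near a cut-off, and these were not told apart. The total called in these fits ranged from 117 to 208. The largest change in the comparison was looked at after its values were seen. Its FPKM was 0, 0, and 1.3 in SCF replicates 1 to 3, and 36.1, 64.6, and 0.885 in SCD replicates 1 to 3. Thus SCD replicate 3 was as low as SCF and the stages overlapped, although the log2 fold change was 3.66 (limma adjusted p = 0.37). Reads were recovered only for the 32966 genes detected in 4 or more of the 24 libraries. Among these, no gene lacked reads in all 3 libraries of one stage while having at least 10 reads in each library of the other. The same held at 5 and at 20 reads. A gene read in only the 3 libraries of 1 stage could not be counted. Of the genes with recovered reads, 740 had no read in SCF and some in SCD, with a median of 2 reads over the 3 SCD libraries. The reverse held for 559 genes, also with a median of 2. For both sets a count of 0 in a stage allows up to 3 reads, so for most of them a difference was not detectable at this depth.

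The called genes were followed through the 4 homograft stages. Of the 88 up-regulated genes, 56 (63.6%) had their highest mean at SCD and 29 (33.0%) at SVC. Of all genes tested 22.4% were highest at SCD and 41.4% at SVC. Their median log2(FPKM + 1) went from 0.97 at 1 DAG and 1.54 at 5 DAG to 2.78 at 9 DAG and 2.33 at 30 DAG. Of the 58 down-regulated genes, 34 (58.6%, against 13.8% of all genes) were highest at SCF and 34 (58.6%, against 14.9%) lowest at SCD, with medians of 2.23 at 1 DAG, 2.63 at 5 DAG, 1.31 at 9 DAG, and 1.96 at 30 DAG. The SCF and SCD means chose these genes, so those levels are a description. The SSS and SVC means did not enter the fold changes that chose them, although their libraries helped to estimate the spread behind each p. Between these stages 52 of the 88 up-regulated genes were called as higher at SVC (59.1%, against 7.45% of all genes tested) and 5 as lower (5.68%, against 3.85%). Of the 58 down-regulated genes, 12 were called as lower at SVC than at SSS (20.7%, against 3.85%) and 6 as higher (10.3%, against 7.45%).

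The heterograft step from DCF to DCD shares no library with the homograft step. Among the 88 genes up-regulated in homografts, 27 were also up-regulated in heterografts (30.7%, against 1.63% of all genes tested) and 5 were down-regulated (5.68%, against 0.952%; 8 without DCD replicate 1). Their median log2 fold change in heterografts was 0.61, against 0.06 over all genes tested. Among the 58 down-regulated genes, 12 were also down-regulated in heterografts (20.7%, against 0.952%) and 1 was up-regulated, with a median of -0.26. The 27 shared genes were 6.73% of the genes up-regulated in heterografts, and the 12 were 5.13% of those down-regulated there. Among weakly expressed genes (mean FPKM below 5 over the SCF and SCD libraries), which most called genes were, 2.33% were up-regulated and 1.22% down-regulated in heterografts, and 8.94% and 4.21% between SSS and SVC. The fit gives each gene 1 spread for all comparisons, so calls of a gene in several comparisons are not fully independent. Without DCD replicate 1, 26 and 9 of the genes were called in the same direction (29.5% and 15.5%). Of the 40 genes called in every fit that left out an SCF or SCD library, 17 were called in the same direction in heterografts. These 40 are 24 up-regulated and 16 down-regulated genes, and of all genes tested 1.63% were up-regulated and 0.952% down-regulated in heterografts.

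**Figure D3:**
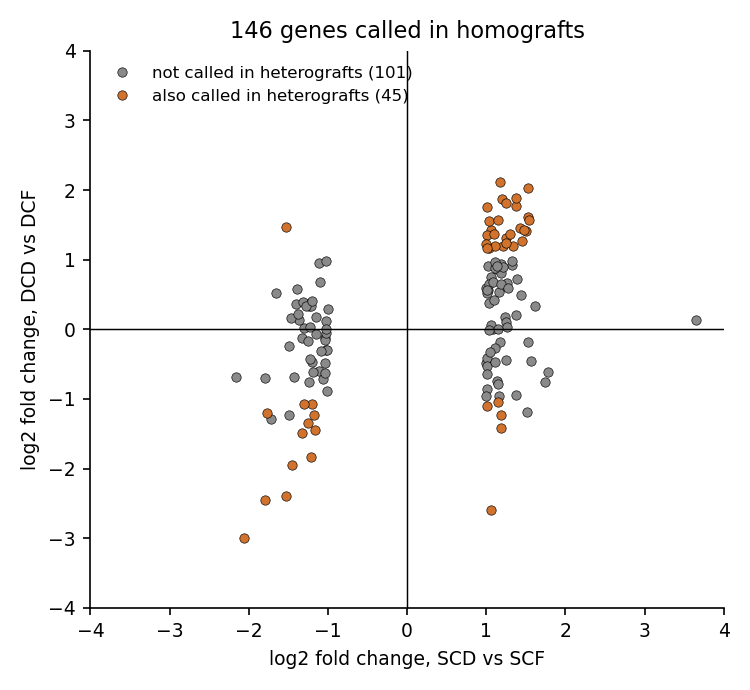
The 146 genes called in homografts. Each point is 1 gene, with the log2 fold change of SCD vs. SCF on the x axis and of DCD vs. DCF on the y axis, and 45 genes that are also called in heterografts are in orange. No gene lies between -1 and 1 on the x axis because of the threshold. Of the 45, 39 lie in the quadrants where both steps have the same direction.

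Genes with the largest changes and no overlap between the stages were taken by rule, 12 in each direction. The 12 up-regulated genes had log2 fold changes from 1.44 to 1.79, and 8 of them were also higher in DCD than in DCF, as were 61.9% of all genes tested. The 12 down-regulated genes had log2 fold changes from -2.06 to -1.39, and 7 were also lower in DCD, as were 9370 of all 24571 genes tested. Most were weak, with a mean FPKM below 10 for 10 and 9 of them. Because their functions are not given in the files, 4 genes are shown by identifier.

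The largest decrease by this rule was that of Pbr013752.1. Its FPKM was 167, 92.2, and 104 in SCF replicates 1 to 3, and 33.1, 13.7, and 44.6 in SCD. Every SCD library was below every SCF library, with a log2 fold change of -2.06 (SE 0.43, 95% interval -2.95 to -1.16, limma adjusted p = 0.201). It was by far the best covered of the 4 genes, with 3187 reads over the SCF and 892 over the SCD libraries. The decrease ran through the whole series of homografts, from a mean FPKM of 989 ± 411 (SD, n = 3) at 1 DAG to 121 ± 40.5 at 5 DAG, 30.5 ± 15.6 at 9 DAG, and 15.4 ± 4.49 at 30 DAG. Heterografts showed it too, from 285, 92.8, and 106 in DCF to 22.8, 11.8, and 17.5 in DCD, a step of -3.0 on the log2 scale that passed the adjusted threshold (limma adjusted p = 0.00656; -3.21 without DCD replicate 1). The difference between the graft types was not significant (adjusted p = 0.589).

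The second gene that was lower, Pbr001115.1, had an FPKM of 1.96, 4.99, and 2.27 in SCF and of 0.113, 0, and 0.258 in SCD. All SCD libraries were near 0, with 3 reads against 69 in SCF and a read ratio of 0.0388 (95% counting interval 0.00782 to 0.118, counting error only). The log2 fold change was -1.79 (SE 0.46, limma adjusted p = 0.37). In SSS the FPKM was 0.679, 0.782, and 0.838, and in SVC 1.20, 2.04, and 0.647. The homograft mean was thus highest at 5 DAG (3.07) and lowest at 9 DAG (0.124), with 0.766 at 1 DAG and 1.29 at 30 DAG.

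Pbr017857.1 had the largest increase by the rule. Its FPKM was 1.02, 0, and 0 in SCF and 2.06, 5.70, and 3.05 in SCD, from 4 and 50 reads. The read ratio was 11.2 (95% counting interval 4.10 to 42.6) and the log2 fold change 1.79 (SE 0.35, limma adjusted p = 0.199). In SSS the mean FPKM was 1.48 ± 1.31 (SD, n = 3), above that of SCF. Heterografts differed in direction, with 3.03, 1.42, and 1.86 in DCF and 1.11, 0.757, and 1.08 in DCD. That step was not called (log2 fold change -0.62, limma adjusted p = 0.34). No library overlapped between the 2 stages in either graft type. The rule required this in homografts, and in heterografts it held for 22.9% of all genes tested. The difference between the steps was 2.40 (SE 0.50, limma adjusted p = 0.105).

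Pbr001424.1 was the gene with the smallest p for a difference between the graft types among those called in opposite directions. Its FPKM was 4.0, 1.92, and 2.24 in SCF and 3.95, 3.73, and 17.5 in SCD. The stages overlapped, and the log2 fold change of 1.06 (limma adjusted p = 0.854) fell to 0.42 without SCD replicate 3. The call was also lost without SCF replicate 2 (0.91) or SCF replicate 3 (0.99). In heterografts every DCD library was below every DCF library, from 12.6, 14.7, and 17.5 in DCF to 1.92, 1.29, and 1.70 in DCD, by 2.59 on the log2 scale (log2 fold change -2.59, limma adjusted p = 0.00846).

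**Figure D4:**
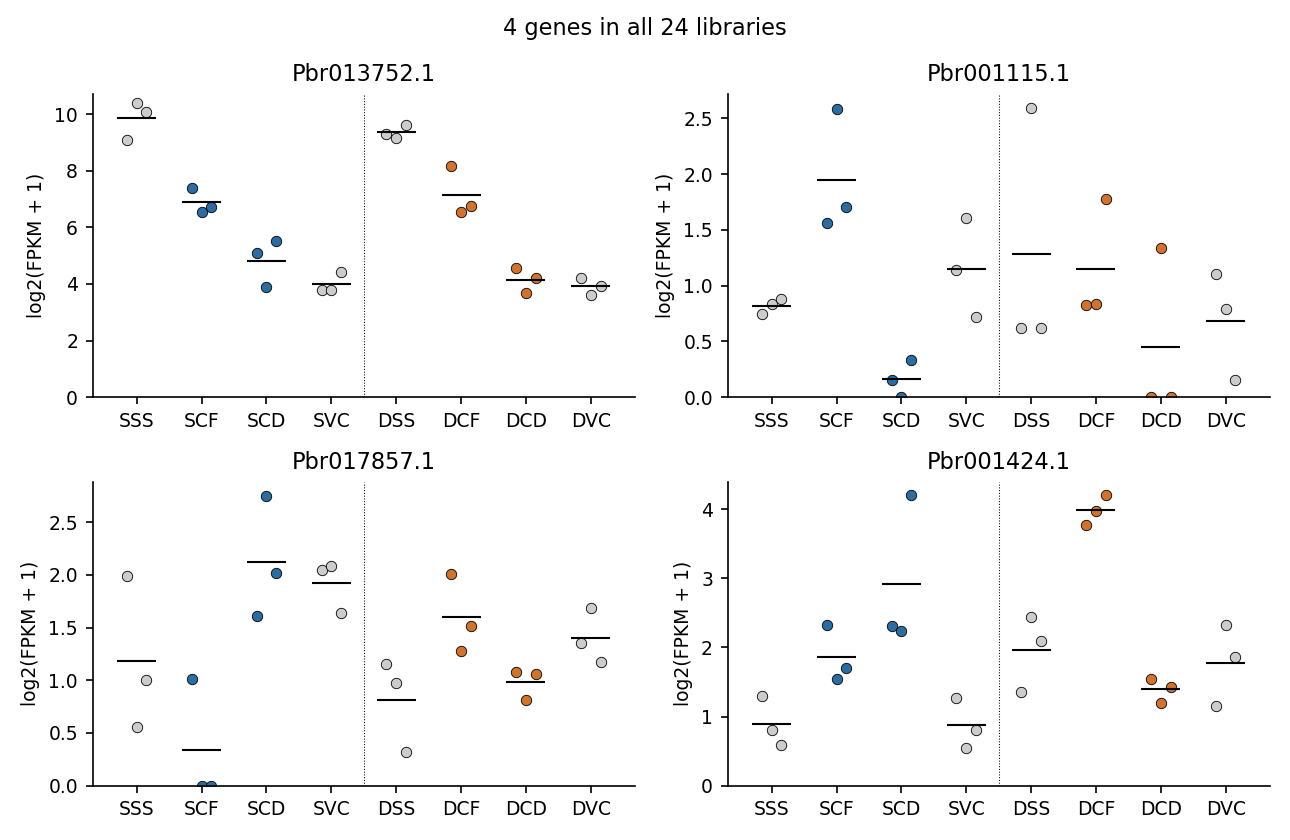
Levels of 4 genes in all 24 libraries, as log2(FPKM + 1). Points are libraries and lines are means of 3. SCF and SCD are in blue and DCF and DCD in orange, with homografts left of the dotted line. Pbr013752.1 was lower at each later homograft stage, whereas Pbr017857.1 and Pbr001424.1 had opposite directions in the graft types.

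To examine auxin and cytokinin signalling at this step, 17 pathway genes were followed, of which 15 passed the filter. Their identifiers and roles were read from a picture of the study and a digit may be misread. The study chose them on these samples, so they are not independent evidence of a direction. Of the 15 genes, 6 were higher and 9 lower in SCD than in SCF, and 1 was called in each direction, both of the SAUR family. Of all genes tested 53.8% were higher, and 0.358% were called as higher and 0.236% as lower. None came near the adjusted threshold (smallest adjusted p = 0.605). The median log2 fold change was -0.43 over 10 auxin genes and 0.37 over 5 cytokinin genes, against 0.01 over all genes tested. The 2 stages did not overlap for 2 of the 15 genes (13.3%), close to the share of all genes.

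Auxin enters cells through AUX1 influx carriers. The stronger AUX1 gene, Pbr033508.2, was measured at an FPKM of 14.2, 27.9, and 17.0 in SCF and 10.6, 12.4, and 20 in SCD, and the weaker, Pbr029742.1, had 1.32, 1.39, and 1.13 against 0.610, 0.261, and 1.39. The stages overlapped for both, with a log2 fold change of -0.43 in each (95% intervals -1.04 to 0.19 and -0.98 to 0.12). AUX/IAA proteins repress auxin response genes until auxin triggers their breakdown. The AUX/IAA gene Pbr033492.1 had 3.69, 0.380, and 3.07 in SCF and 0.319, 1.31, and 1.58 in SCD. Its low value in SCF replicate 2 lay within the SCD range, and the log2 fold change was -0.58 (-1.53 to 0.37).

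GH3 enzymes conjugate auxin to amino acids and so remove active hormone. For 1 GH3 gene, Pbr030688.1, the FPKM was 5.75, 6.52, and 6.78 in SCF and 4.39, 8.69, and 5.91 in SCD, with a log2 fold change of -0.04 (-1.06 to 0.98). The 3 SCF libraries lay inside the SCD range. In heterografts this gene was up-regulated over the same days, from 2.21, 2.10, and 2.48 to 1.43, 15.2, and 13.9, by 1.36 on the log2 scale (limma adjusted p = 0.119). DCD replicate 1 was at the DCF level, and without it the step was 2.25 (limma adjusted p = 0.000877). The difference between the steps was -1.40 (adjusted p = 0.474), and without DCD replicate 1 it was -2.29 (adjusted p = 0.0237). The other GH3 gene, Pbr007550.1, was weak at both stages, from 0.805 to 1.13 in SCF and from 0.772 to 1.04 in SCD.

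SAUR genes are short auxin-responsive genes, several of which promote cell expansion in Arabidopsis. The counting of reads that fit several genes is not stated, so values of similar SAUR genes may be mixed. Of the 7 SAUR genes, 5 passed the filter, 2 with a higher and 3 with a lower mean in SCD. Pbr023262.1 was down-regulated, with an FPKM of 2.40, 4.33, and 1.62 in SCF and 0, 0.249, and 1.10 in SCD. The stages did not overlap, but the values rest on 29 and 5 reads, and the log2 fold change was -1.39 (SE 0.43, limma adjusted p = 0.605). The mean FPKM was 0.588 ± 0.525 (SD, n = 3) in SSS, low as in SCD, and 1.94 ± 0.534 in SVC.

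Pbr010681.1 was up-regulated, with an FPKM of 0.954, 0.459, and 1.28 in SCF and 1.73, 3.76, and 3.07 in SCD. All SCD libraries were above SCF, from 12 and 42 reads, with a log2 fold change of 1.01 just past the threshold (limma adjusted p = 0.953). The call was lost with any 1 of 4 libraries left out (SCF replicates 1 and 2, SCD replicates 2 and 3; log2 fold changes from 0.83 to 1.04). Pbr023263.2 did not pass the filter. It had 0.977, 2.82, and 0.585 in SCF and 0.263, 0, and 0 in SCD, from 14 reads and 1 read, a read ratio of 0.0638 (95% counting interval 0.00151 to 0.419; exact permutation test, two-sided, p = 0.1, the smallest possible). Pbr042214.1 had 2.63, 6.97, and 5.32 in SCF and 1.59, 3.28, and 1.82 in SCD, with overlap and a log2 fold change of -0.85 (-1.84 to 0.14). For Pbr018494.1 and Pbr040904.2 the log2 fold changes were 0.41 and -0.47, also with overlap, and Pbr009936.1 had 1 read in each stage. Of the 6 SAUR genes that are not at 1 read per stage, 4 had lower and 2 higher means at 9 DAG.

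Cytokinin signals pass by phosphotransfer from receptors through AHP proteins to type-B ARR transcription factors, which activate type-A ARR genes, and type-A ARR proteins dampen the signal. The AHP gene Pbr015522.1 had an FPKM of 4.61, 2.31, and 5.76 in SCF and 2.92, 7.49, and 7.20 in SCD, with a log2 fold change of 0.37 (-0.54 to 1.28). The type-B ARR gene Pbr012127.1 was the highest of the 17 genes at both stages, with 69.4, 59.3, and 67.4 in SCF and 59.0, 54.4, and 63.1 in SCD. Its log2 fold change was -0.15, with a 95% interval from -0.34 to 0.04, well inside a change of 1 in either direction.

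All 3 type-A ARR genes had higher means in SCD, and none was called. Pbr002919.1 had 17.7, 18.3, and 26.1 in SCF and 24.1, 41.8, and 30.2 in SCD. Only SCF replicate 3 overlapped with SCD, and the log2 fold change was 0.59 (-0.25 to 1.43, limma adjusted p = 0.99). For Pbr009193.1 the values were 42.3, 18.7, and 40.1 against 36.0, 59.8, and 44.9, a log2 fold change of 0.52 (-0.10 to 1.13). Pbr024916.1 had 38.1, 31.2, and 40.0 against 32.4, 51.6, and 33.7, a log2 fold change of 0.08 (-0.33 to 0.49). SCD replicate 2 was the highest of the 6 libraries for all 3 genes, and without it the value of Pbr024916.1 was -0.13.

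In heterografts the first of these, Pbr002919.1, was up-regulated from 13.2, 10.6, and 9.14 in DCF to 18.7, 60.2, and 55.1 in DCD, a difference of 1.78 on the log2 scale (limma adjusted p = 0.0247), and of 2.30 without DCD replicate 1 (limma adjusted p = 0.0013). The homograft step was smaller by 1.19 on the log2 scale, which did not pass the adjusted threshold (limma adjusted p = 0.458; without DCD replicate 1, adjusted p = 0.0843). At 5 DAG homografts stood at a mean FPKM of 20.7 ± 4.69 (SD, n = 3) and heterografts at 11 ± 2.03, and at 9 DAG at 32.0 ± 8.96 and 44.7 ± 22.6. By 30 DAG the homograft mean was 7.69 ± 6.07. Over the 15 hormone genes tested, the steps of the graft types differed at an unadjusted p below 0.05 for 5 genes, 4 of them auxin genes of the SAUR family, and for 0 after adjustment. Over all genes tested 10.8% had such a p.

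**Figure D5:**
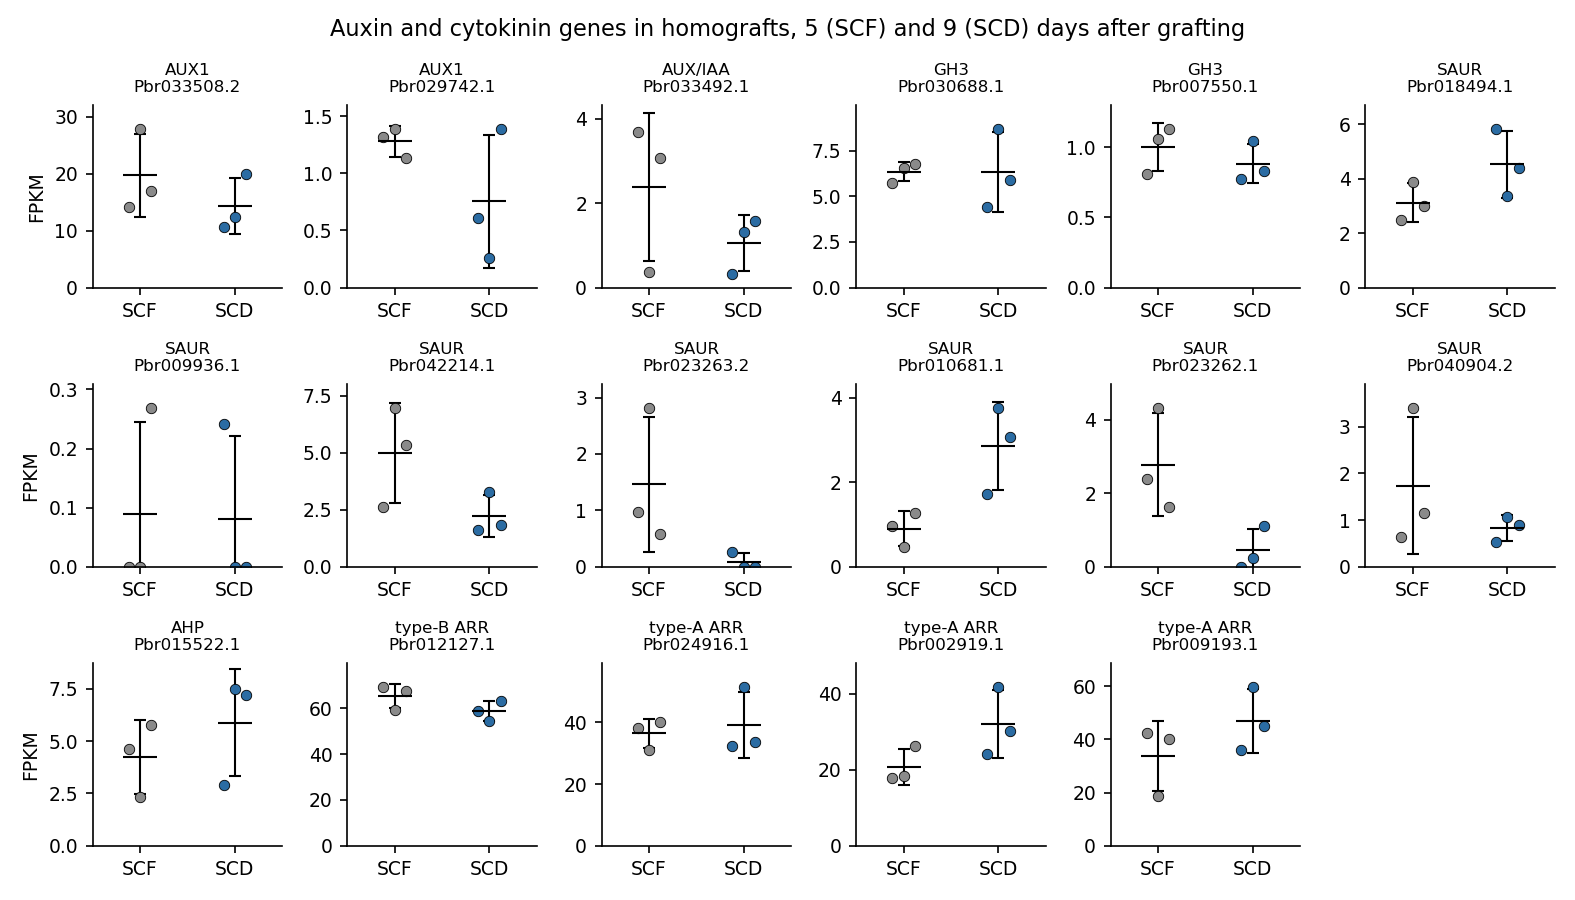
FPKM of 17 auxin and cytokinin genes in homografts at 5 DAG (SCF, grey) and 9 DAG (SCD, blue). Points are libraries, horizontal marks are means and bars are SD (n = 3), and each panel has its own y axis from 0. The stages separate for the SAUR genes Pbr010681.1, Pbr023262.1, and Pbr023263.2, all below an FPKM of 5, and overlap for the other genes.

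PbBglu13 (Pbr042200.2) encodes a β-glucosidase, an enzyme that releases glucose from β-linked sugars and glycosides. Its FPKM was 1.18, 1.90, and 0.637 in SCF and 0.764, 1.64, and 0.653 in SCD, with a log2 fold change of -0.14 (-1.24 to 0.95). The stages overlapped wholly, and the interval is too wide to set a limit at a change of 1. In heterografts it was at 10.8, 3.16, and 9.20 in DCF and at 8.82, 7.11, and 8.95 in DCD, above every homograft library at both days.

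Genes measured by qPCR, for which no function is given, were better expressed, and all 15 passed the filter. In SCD vs. SCF 5 were higher and 10 lower, none was called, and log2 fold changes ranged from -0.67 to 0.24. Of all genes tested 53.8% were higher and only 0.594% were called, so a list of 15 without a call is not unusual. The largest change was that of Pbr037054.1, at 25.7, 27.0, and 19.7 in SCF and 14.8, 10.2, and 20.9 in SCD (limma adjusted p = 0.854). The stages did not overlap for Pbr015955.1 and Pbr021785.1 (13.3%, against 11.3% of all genes tested), with log2 fold changes of only 0.11 and -0.17. For Pbr035767.1 the stages overlapped, with values from 17.9 to 18.7 in SCF and from 17.4 to 18.4 in SCD.

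Whether the step itself differed between graft types was tested as the difference of the log2 fold changes, SCD vs. SCF minus DCD vs. DCF. It passed the adjusted threshold for 13 of 24571 genes (0.0529%) in limma, and 2662 genes had an unadjusted p below 0.05 (10.8%), whereas limma-voom gave 0 and 2639. In all 13 genes the homograft log2 fold change was positive, from 0.12 to 1.06, and the heterograft one negative, from -2.59 to -0.48. The number depended on single libraries. Without DCD replicate 1 it was 302, which included all 13, with 147 positive and 155 negative differences, and without any one of 8 other libraries (SCF replicates 1 and 2, SCD replicates 1 and 3, DCF replicates 2 and 3, or DCD replicates 2 and 3) it was 0. It was 1 without SCF replicate 3, 17 without SCD replicate 2, and 20 without DCF replicate 1.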

How the data were processed

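RNA was sequenced from 24 graft unions. Reads had been trimmed (Cutadapt), mapped to a Pyrus bretschneideri scaffold assembly (HISAT2), and counted per gene (HTSeq), and the authors deposited the result as FPKM. The treatment of reads that fit several genes is not given in the sources used here. The files code the 9 DAG stage as SSD and DSD. No 2 libraries held identical values.

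Groups were taken from the sample titles. Genes at or above an FPKM of 1 in 3 or more of the 6 SCF and SCD libraries were fitted on log2(FPKM + 1), with a pseudocount of 1, in limma 3.58.1 (R 4.3.3) with a mean-variance trend, 1 mean per condition over all 24 libraries. Log2 fold changes, SE, 95% intervals and two-sided p come from this fit, with Benjamini-Hochberg adjustment over the genes tested. Whole reads were recovered from the FPKM values (100% of the 32966 genes detected in 4 or more libraries came out whole, to 0.0001 reads) for depth, coding length, read ratios and limma-voom. Ratio intervals are exact and cover counting error only, and the floor of a stage with no read is 3 reads over its 3 libraries. Remaining steps ran in Python 3.11.15 (scipy 1.17.1, pandas 2.3.3, numpy 2.4.6). The fit was tested on simulated data.

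The genes named were the 12 per direction with the largest change among called genes without overlap, the 3 per direction with the highest level, 3 called in opposite directions, and all listed hormone, qPCR and PbBglu13 genes. A condition on adjusted p was dropped, as under 5 genes met it. The files do not pair identifiers with names, so 4 unlisted identifiers are printed and the lists by function that had been planned were not used. Members and lists were chosen with earlier results of these data known. Same-numbered SCF and SCD libraries did not deviate together (r = 0.00, -0.109, and -0.139), so numbers were not treated as pairs.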

Additional observations from a re-analysis of the deposited data

Results flagged for a closer look

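The step from 5 to 9 DAG differed between homografts and heterografts, by a test of the difference itself, for 13 genes at an adjusted p below 0.05 in limma. They had adjusted p values from 0.0329 to 0.048, and 9 of the 13 had opposite directions in the graft types with no overlap of libraries in either. The test of the difference favours such genes, so the count of 9 is a description and no further support. Over all genes tested, libraries did not overlap for 11.3% in homografts and 22.9% in heterografts. The number of 13 was 0 with limma-voom and ranged from 0 to 302 with 1 library left out. Pbr001424.1 was among the 13 but not the 9, since its SCF and SCD libraries overlapped, with a difference of 3.66 on the log2 scale (SE 0.59, limma adjusted p = 0.0329; 0.0197 without DCD replicate 1), and its homograft part rests on SCD replicate 3. In Pbr017857.1 every SCD library was above every SCF library and every DCD library below every DCF library, with a difference of 2.40 that did not pass the adjusted threshold (limma adjusted p = 0.105; 0.0409 without DCD replicate 1). In the fits that left 0 genes, limma-voom among them, Pbr001424.1 did not pass either. Leaving out DCD replicate 1 tends to widen the difference, so the values without it are no separate support for these 2 genes.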

How the results depend on the processing

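The 146 called genes (88 up-regulated, 58 down-regulated) became 262 (150 and 112) with a pseudocount of 0.1, 54 (34 and 20) with a filter at an FPKM of 5, 286 (167 and 119) with limma-voom, and 0 (0 and 0) with the adjusted p as threshold. Of the main calls, 126, 54, and 134 were shared by the first 3 of these. With 1 SCF or SCD library left out the total ranged from 117 to 208, the up-regulated genes from 64 to 114, and the down-regulated genes from 53 to 107, with 90 without SCF replicate 3 and 107 without SCD replicate 3. The number at an adjusted p below 0.05 ranged from 0 to 1, the 1 being without SCD replicate 3. Calls shared with heterografts, 27 and 12, ranged from 15 to 39 and from 8 to 24 in these fits, with 15 without SCF replicate 1 or SCD replicate 2, and with 19 and 24 without SCF replicate 2 and SCD replicate 3. They were 43 and 19 with the pseudocount, 17 and 8 with the filter, and 57 and 17 with limma-voom. With the replicate number as a block 144 genes were called, 143 of them shared, and 143 with a block over only the 6 libraries (133 shared). The 2 listed genes called became 1 with the replicate block, the pseudocount of 0.1 and limma-voom, and 0 with the filter at 5 and with adjusted p, and ranged from 1 to 2 with a library left out. The 13 genes whose steps differed became 7 with the replicate block and 0 with limma-voom, an alternative chosen after seeing the data, and ranged from 0 to 302 with a library left out. With a library left out, the log2 fold change ranged from -0.27 to 0.16 for Pbr030688.1, from -0.13 (without SCD replicate 2; -0.03 without SCF replicate 2) to 0.20 for Pbr024916.1, and from -0.35 to 0.06 (without SCF replicate 2) for PbBglu13 (Pbr042200.2). The heterograft values without DCD replicate 1 were also chosen after seeing the data, and leaving out this library tends to widen the heterograft step. The stricter filter leaves out weakly expressed genes. Of the main calls, 60.2% of the up-regulated and 60.3% of the down-regulated genes had a mean FPKM below 5 over the 6 libraries. The cause of the shifts was not tested. Depth limits the precision of genes with few reads.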

Other observations

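The genes called between 5 and 9 DAG in homografts were also followed through the heterograft stages, whose means did not enter the fold changes that chose them, although their libraries helped to estimate the spread of each gene. The 88 up-regulated genes had a median log2(FPKM + 1) of 1.23 in heterografts at 1 DAG, 1.51 at 5 DAG, 2.25 at 9 DAG, and 2.59 at 30 DAG, so the highest heterograft median was at 30 DAG. The homograft median was highest at 9 DAG, but the genes were chosen for a high SCD mean. The stages of the highest median can therefore not be compared between the graft types. The 58 down-regulated genes had medians of 2.06, 2.24, 1.97, and 1.98 at these 4 stages. These orders of medians were not tested.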
